A study of Cavia porcellus with 30 samples.

Results

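The comparison followed guinea pig kidney tubule cells that received no mercury, from 12 h to 24 h after the vehicle was applied. It used the 10 libraries whose labels name Vehicle as the agent, 5 collected at 12 h and 5 at 24 h, of 30 RNA-seq libraries in all. The other 20 libraries came from cells given mercuric chloride, a nephrotoxic mercury salt, at 30 or 40 µM for the same times, 5 libraries per dose and time. All cells were renal proximal tubular epithelial cells isolated from guinea pigs (Cavia porcellus) of the Hartley breed aged 6 to 8 weeks. Per the methods of the study the cells had been grown on plates and replated before the last 48 h of culture that preceded the exposure, so 12 h and 24 h are times since exposure and not the age of the cultures. The vehicle was Hepatocyte Maintenance Medium, which every group shared. The labels do not say whether libraries of a group came from separate animals or separate cultures, so p-values measure the spread between these libraries, which may be technical. The 12 h vehicle libraries carry the title numbers 2 to 6 and the 24 h ones 19 to 24, so any effect of that order cannot be told apart from time. The same holds with mercuric chloride, where title numbers run from 7 to 18 at 12 h and from 25 to 36 at 24 h.

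Proximal tubule cells line the first segment of the nephron, where most of the filtered glucose, amino acids, phosphate and salt is taken back. They depend on mitochondrial respiration for this transport. Once isolated and plated, primary tubule cells are known to lose differentiated transport functions over time, and so the untreated cells of a toxicant study are themselves a changing population. The question of this comparison was how much the transcriptome of unexposed cells moved in 12 h of culture, and whether abundant or rare, short or long transcripts carried that movement.

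Each library was described by estimated counts per Ensembl transcript. The vehicle libraries held 22359147 to 34237468 estimated counts at 12 h and 21651452 to 33997378 at 24 h, so the depths of the groups overlapped. The identifiers were not paired with gene names in the tables used here, so the results are given by transcript level, length and position in the tables. The labelled cell type could not be checked against its marker genes.

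One 24 h library stood apart from the other vehicle libraries. Its mean fragment length (estimated from the difference between transcript length and effective length) was 175.7 bases, against 191 to 214.5 bases in the other 9. It lay alone on the first principal component of the vehicle libraries, which held 14.1% of the variance, with a score of -56.0 against -16.1 to 35.6 in the others. On this component the 12 h libraries scored 2.2 to 35.6 and the 24 h ones -56.0 to 0.91, so the times did not overlap, by a narrow margin. This was not tested. The library that stood apart is called 24 h library 2 below, and the counts and slopes that move most without it are given both ways. No pair of libraries of the same time agreed within sampling noise, with a chi-square per degree of freedom of 5.86 to 18.1 over 20 pairs, so none was merged. That spread can also arise in library preparation.

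The called changes were few and mostly small. Of 16614 transcripts with enough counts to test, 359 (2.16%) differed between 24 h and 12 h at an adjusted p under 0.1 in edgeR's quasi-likelihood test, which is what "called" means here. Of these, 229 (1.38% of those tested) rose and 130 (0.782%) fell. The median size of a called change was 0.24 on the log2 scale, and 321 of the 359 (89.4%) moved by less than 0.5. Over all tested transcripts the median change was -0.0007. An unadjusted p under 0.05 was reached by 2147 transcripts (12.9%).

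The number of calls depended on the tool and on single libraries. DESeq2 called 783 transcripts, of which 354 were among the 359. Without 24 h library 2 the count was 546, and without 12 h library 5 it was 409. Leaving out any one of the other 8 libraries gave 175 to 251 calls.

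The direction split depended on the scale. On counts scaled by TMM factors (which set the typical transcript to no change), 63.8% of calls were higher at 24 h, and on counts scaled by library totals alone 38.1% of 451 calls were. On log2(TPM + 1), where TPM divides counts by effective length and fixes the total, limma put 13.8% of 1090 calls higher, and the median change of all transcripts was -0.054. After each library was centred on its median TPM change, 76.7% of 347 calls were higher. The directions below are on the TMM scale and are relative to the typical transcript.

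**Figure D1:**
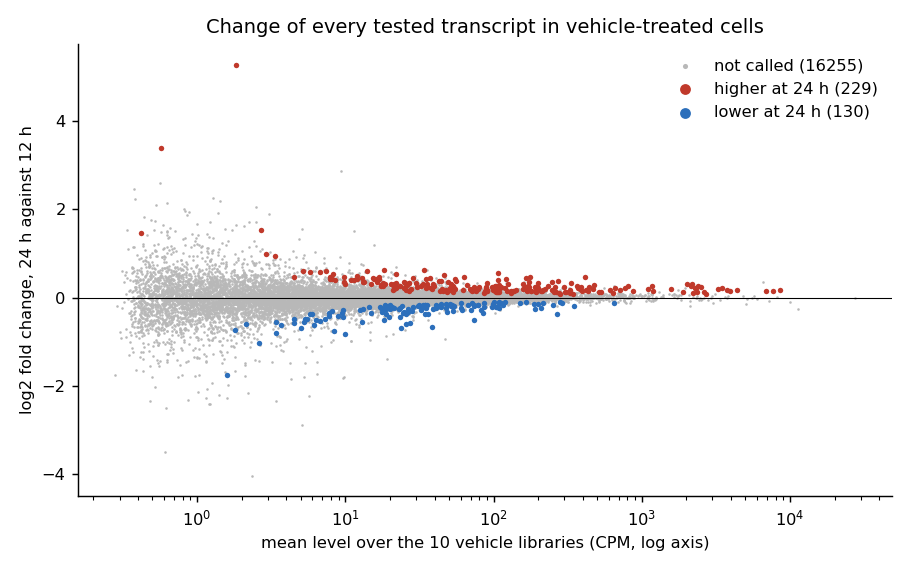
Each point is one of the 16614 tested transcripts, with its mean level over the 10 vehicle libraries in CPM (counts scaled to a common library total, log axis) against its log2 fold change at 24 h relative to 12 h. The 229 called rises and 130 called falls narrow toward 0 as the level rises, and the 6 called changes of 2-fold or more lie among the rarest transcripts.

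The values of the libraries at the 2 times were apart for most of the called transcripts. All 5 libraries of one time lay above all 5 of the other in 323 of the 359 (90.0%), against 691 of all tested transcripts (4.16%). The calls were made on these same libraries, so the 90.0% largely follows from their selection and is a description. Of the 691, 385 (2.32%) were higher at 24 h and 306 (1.84%) lower.

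Calls were most frequent among abundant transcripts. The tested transcripts were divided by mean level into 5 bins of equal size, and the share called was 0.241% in the rarest bin, then 1.17%, 1.72% and 2.50%, and 5.18% in the most abundant bin. The most abundant bin, at 56.4 CPM or more, held 172 of the 359 calls (47.9%). It held 133 of the 229 rises (58.1%) and 39 of the 130 falls (30.0%), so calls there were mostly rises, whereas the rarest bin held 4 rises and 4 falls and the next rarest 15 rises and 24 falls. With 10 bins, 105 transcripts rose and 20 fell in the most abundant one. The median level was 90.4 CPM among called rises, 32.0 among called falls and 16.1 among all tested transcripts.

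Called changes were larger among rare transcripts. The median size was 1.50 on the log2 scale over the 8 calls of the rarest bin and 0.18 over the 172 of the most abundant bin. The median standard error of a log2 change was 0.326 in the rarest bin and 0.038 in the most abundant bin, so only large changes could be called among the rarest transcripts, and small ones could be called among the abundant. Both the number and the size of the calls follow this precision to a degree that was not tested. Estimates of either sign, called or not, were above 0 for 46.7% of transcripts in the rarest bin and 58.0% in the most abundant, with median changes of -0.02 and 0.01.

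The share of calls in the most abundant bin was 41.1 to 58.8% across the 25 alternative settings that gave calls. Its calls were 192 rises and 86 falls without 24 h library 2, 145 and 63 without 12 h library 5, and 79 to 104 rises and 17 to 26 falls without any one of the other libraries. The excess of rises there did not hold under every scaling. In 4 of the 25, both tests on uncentred log2 TPM, the one on TPM rescaled over transcripts of at least 300 bases and the one on library totals alone, more of its calls were falls than rises. With a level trend removed from each library, its calls were 101 rises and 87 falls.

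The shares called spanned a narrower range by length. In 5 bins of equal size by transcript length, the share called was 1.66% in the shortest (up to 1308 bases), 1.35%, 2.98%, 2.50%, and 2.32% in the longest (4656 bases or more). Rises made up 78.2% of the calls in the shortest bin (43 rises and 12 falls) and 57.1% in the longest (44 and 33). The median change was 0.02 on the log2 scale in the shortest bin and -0.01 in the longest. The median length was 2735 bases among rises, 3249.5 among falls and 2602.5 among all tested transcripts.

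Crossing 3 bins of level with 3 of length placed most of the rises in the abundant bin (31.7 CPM or more). Among abundant transcripts the share called varied little with length, with 4.00% of 1301 short ones (up to 1839 bases), 4.52% of 1903 of middle length and 3.98% of 2334 long ones (3573 bases or more). The short ones had 46 rises and 6 falls, those of middle length 64 and 22, and the long ones 56 and 37. At middle levels the rises and falls were 21 and 10 among short transcripts, 18 and 25 among those of middle length, and 14 and 12 among long ones. Among rare transcripts (7.06 CPM or less), the 5 calls among 2397 short ones were all falls, 7 rose and 4 fell among 1761 of middle length, and 3 rose and 9 fell among 1380 long ones.

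**Figure D2:**
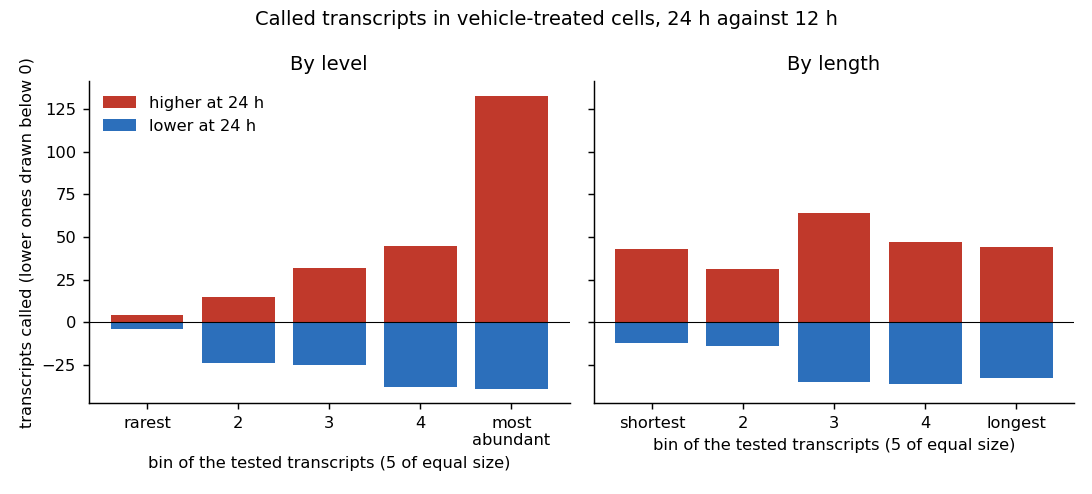
Bars count the transcripts called in 5 bins of equal size of the tested transcripts, by mean level (left) and by length (right), with rises drawn above 0 and falls below. Rises grow from 4 in the rarest bin to 133 in the most abundant bin, while the bins by length range only from 31 to 64 rises.

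Tests over libraries, with 1 value per library, gave no shift by level or length that passed adjustment. For each library the deviation of log2 CPM from its mean over the 10 libraries was regressed on the logarithm of length. This slope was 0.021 ± 0.050 (SD, n = 5) per 10-fold length at 12 h and -0.021 ± 0.076 at 24 h, a difference of -0.043 with p = 0.405 in a two-sided exact permutation test. The values overlapped. At 12 h they ran from -0.032 to 0.103, the highest in library 5, and at 24 h from -0.148, in library 2, to 0.044. The difference was -0.022 without 12 h library 5 and -0.011 without 24 h library 2 (exact permutation p = 0.778 and 0.746). Without both it was 0.0093, in the other direction, with an exact permutation p = 0.6.

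The slope on mean log2 CPM was -0.0026 ± 0.0091 (SD, n = 5) at 12 h and 0.0026 ± 0.0073 at 24 h, with an exact permutation p = 0.365. Over transcripts of at least 5 CPM the difference between the times was 0.0084, with an unadjusted exact permutation p = 0.0318. It was 0.00082 with no filter on low counts, 0.0018 on log2(TPM + 1) and 0.0025 without 12 h library 5 and 24 h library 2 (exact permutation p = 0.802, 0.492 and 0.743), against 0.0051 in the main comparison. The 2 slopes and 10 measures of composition made a family of 12. A comparison of 5 libraries with 5 cannot reach an exact permutation p below 0.00794.

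Counts were held by slightly fewer transcripts at 24 h, by differences that did not pass adjustment. The 1000 most abundant transcripts of a library held 58.1 ± 0.326% of its counts (SD, n = 5) at 12 h and 58.6 ± 0.241% at 24 h, a difference of 0.506 percentage points (exact permutation p = 0.0159, adjusted p = 0.190). Individual libraries ran from 57.7 to 58.5% at 12 h and from 58.4 to 59.0% at 24 h, so the groups overlapped. Correspondingly, 583.4 ± 17.5 transcripts held 50% of the counts at 12 h and 563.4 ± 8.91 at 24 h (SD, n = 5, exact permutation p = 0.0635, adjusted p = 0.381). The 10 most abundant transcripts held 10.2 ± 0.763% and 10.1 ± 0.0954% (SD, n = 5) in the same order.

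The groups overlapped in the remaining measures. Transcripts with at least 1 count numbered 18764 to 19382 at 12 h and 18902 to 19363 at 24 h. Transcripts under 1000 bases held 8.09 ± 0.260% of counts (SD, n = 5) at 12 h and 8.33 ± 0.197% at 24 h (exact permutation p = 0.151), and those over 4000 bases held 36.1 ± 1.03% and 35.4 ± 0.572% (exact permutation p = 0.190). Without 12 h library 5 these differences shrank from 0.245 to 0.147 and from -0.748 to -0.322 percentage points. The mean fragment length was 203 ± 8.72 bases at 12 h and 204 ± 16.2 at 24 h (SD, n = 5, exact permutation p = 0.849). Without 24 h library 2 the difference was 8.6 bases in place of 1.48 (exact permutation p = 0.127).

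Fragment length and the length slope moved together across the 10 vehicle libraries, with Pearson r = 0.739 (permutation p = 0.025) and Spearman rho = 0.467 (permutation p = 0.178). Without 24 h library 2 and 12 h library 4, the libraries farthest from the median fragment length, r was 0.227, so the relation rested on those libraries. Within a time r was 0.533 at 12 h and 0.919 at 24 h, each over 5 libraries and given without a test. With fragment length as a covariate, 438 transcripts were called, 346 of them among the 359. Its part in the results was not otherwise tested.

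**Figure D3:**
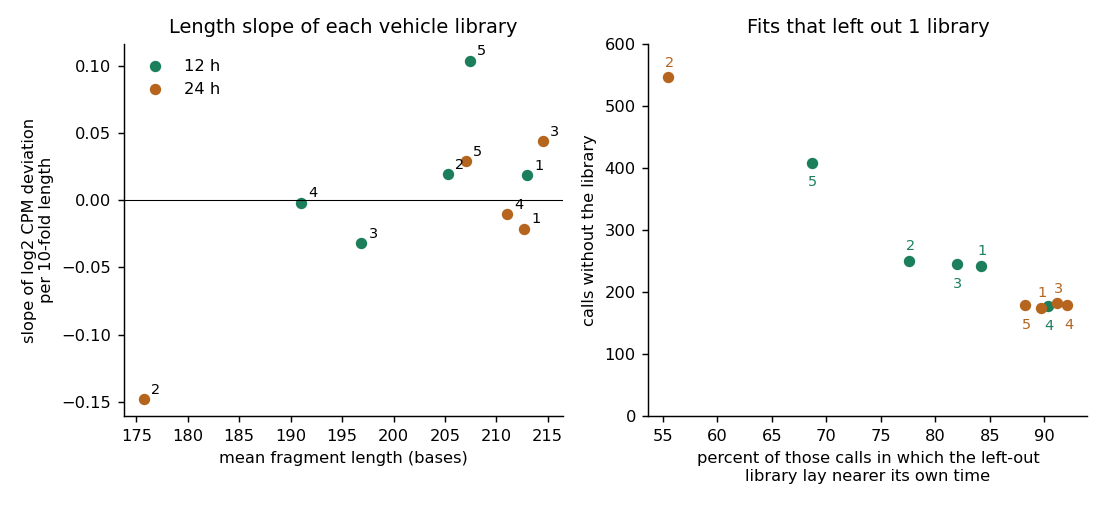
Left, the slope of log2 CPM deviation on transcript length for each vehicle library against its mean fragment length in bases. Right, the calls of the fit that left out each library against the percent of those calls in which the left-out library lay nearer the mean of its own time. Numbers are library numbers within a time, and 24 h library 2 is the lowest point on the left and the highest on the right (546 calls, 55.5%).

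Libraries left out of the fit gave a check of the calls on data that had not made them. For 8 of the 10 libraries, 77.6 to 92.1% of the calls made without a library found it nearer the mean of its own time than that of the other. The exceptions were 12 h library 5, at 68.6% of 409 calls, and 24 h library 2, at 55.5% of 546 calls. Over all tested transcripts the same share was 47.6 to 58.4%. Of the 359 calls, 136 (101 rises and 35 falls) were called in all 10 of these fits, and 87 of the 136 lay in the most abundant bin. Every called transcript that was tested kept its direction in each of these fits. These fits reused the remaining libraries that had made the calls, so neither the 136 nor the kept direction is an independent check.

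A group of 13 abundant transcripts that heads every table, in consecutive rows and with lengths from 204 to 1812 bases, was higher at 24 h almost throughout. The group was noticed for its values, so its counts are a description with no test of the group. Its share of a library's counts was 2.98, 3.07, 3.05, 2.84 and 2.73% in the 12 h vehicle libraries 1 to 5, and 3.42, 3.26, 3.33, 3.31 and 3.33% in the 24 h ones. The lowest 24 h library was thus above the highest 12 h library, and the means were 2.94 ± 0.144% and 3.33 ± 0.056% (SD, n = 5). The 95% Wilson interval of each share was at most 0.00748 percentage points to either side, for counting error only. On the TPM scale the share was 6.91 to 7.39% at 12 h and 7.79 to 8.16% at 24 h, again without overlap.

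Estimates were above 0 for all 13, and 10 of the 13 rose past the threshold, where 2.16% of all transcripts were called. In the most abundant of 10 level bins (104.8 CPM or more), where all 13 lay, 7.52% were called. The median change of the 13 was 0.21 on the log2 scale, with a range of 0.09 to 0.32. The transcript of 960 bases had the largest change, from 1809 ± 75.3 to 2249 ± 31.5 CPM (SD, n = 5), a log2 change of 0.32 ± 0.027 (SE, edgeR adjusted p = 0.00038). The most abundant, of 1542 bases, went from 7343 ± 335 to 8115 ± 154 CPM (SD, n = 5), a log2 change of 0.14 ± 0.029 (SE, edgeR adjusted p = 0.0408). The 3 that were not called were those of 204, 346 and 531 bases, whose changes were 0.19, 0.18 and 0.09 with edgeR adjusted p of 0.445, 0.199 and 0.290. The rises were thus not limited to one length within the group, and 9 of the 13 had estimates that were exactly whole in all 30 libraries.

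These 13 transcripts together gained 0.394% of all counts, where the transcripts that gained took up 2.66% between them. They supplied 5 of the 10 largest gains in counts and 9 of the 20 largest. All 13 estimates were above 0 under each of the 24 alternatives in which all 13 were tested, including the TPM scale and library totals alone, with 7 to 12 of them called except under the block on title position, which called no transcript. Of the 13, 7 were called in all 10 fits that left out a library.

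The same 13 were followed in the mercuric chloride libraries, which share no library with the vehicle comparison. In these the 12 h libraries also precede the 24 h ones in title number, so an effect of order cannot be told apart from time. At 30 µM, 9.03% of all tested transcripts were called between 24 h and 12 h, and 17.3% of the most abundant of 5 level bins. Of the 13, 6 rose and all 13 estimates were above 0, with a median of 0.15. Their share of counts went from 2.98 ± 0.050 to 3.29 ± 0.219% (SD, n = 5). At 40 µM, 42.9% of all tested transcripts were called, and 62.1% of the same bin. Of the 13, 12 rose and the median was 0.20. The share went from 2.91 ± 0.166 to 3.26 ± 0.151% (SD, n = 5). The 12 h and 24 h libraries overlapped at 40 µM, with 2.70 to 3.11% against 3.07 to 3.39%, and did not overlap at 30 µM, with 2.92 to 3.02% against 3.07 to 3.62%. The estimated change minus that in vehicle was below 0 for all 13 at 30 µM, with a median of -0.09 on the log2 scale, and ran from -0.10 to 0.11 at 40 µM. These differences reuse the vehicle libraries in which the group was noticed, so they are given without a test.

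**Figure D4:**
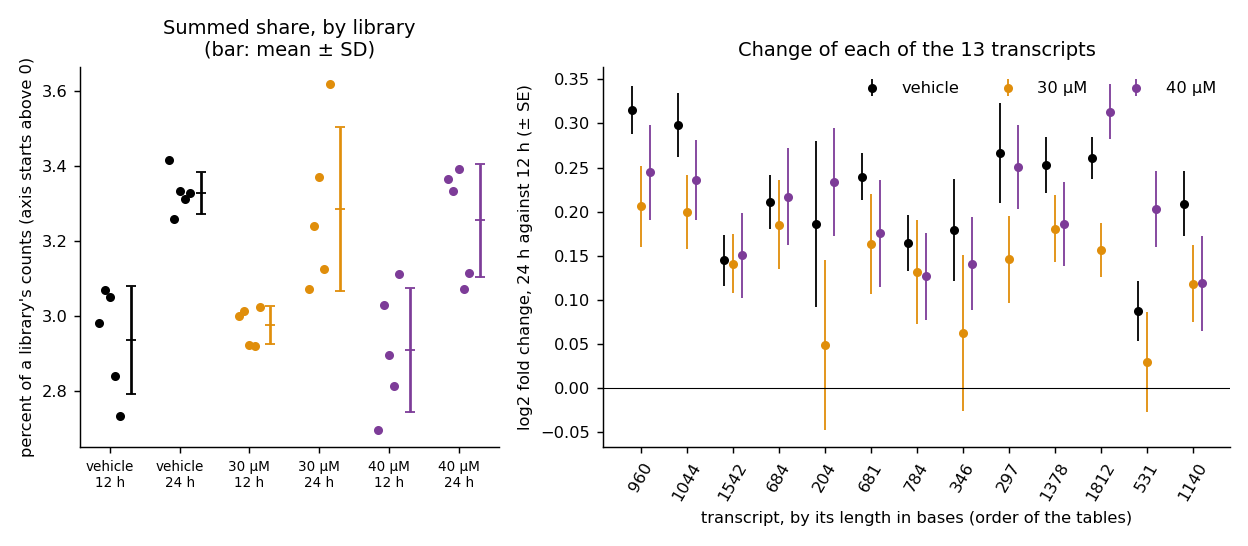
Left, the percent of each library's counts held by the 13 transcripts at the head of the tables, as points with the group mean ± SD (n = 5), on an axis that starts above 0. Right, the log2 fold change ± SE of each, at 24 h relative to 12 h, in vehicle and at both doses. All 39 estimates lie above 0, and the vehicle libraries of 12 h (up to 3.07%) and 24 h (from 3.26%) do not overlap.

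The changes of 2-fold or more were confined to rare transcripts among those called. There were 6 (0.0361% of those tested), 4 rises and 2 falls, with mean levels of at most 2.72 CPM. The largest belonged to a transcript of 5550 bases, with 0 to 11 estimated counts per library at 12 h and 57 to 160 at 24 h. A transcript of 4128 bases had 55 to 69 estimated counts at 12 h and 13 to 27 at 24 h. Of the 6, 5 had fractional estimates, so that reads shared with similar transcripts enter their levels.

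Of the called transcripts, 318 (204 rises and 114 falls) averaged 50 counts or more and had 12 h and 24 h libraries that did not overlap. The largest rises and falls of these are given by identifier.

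ENSCPOT00000033641.1, of 2268 bases and with whole estimates, had the best supported large fall. Its level was 13.2, 14.3, 12.3, 13.4 and 10.4 CPM in the 12 h libraries 1 to 5 and 7.72, 6.40, 7.78, 6.68 and 7.47 CPM in the 24 h libraries. Every 24 h library lay well below every 12 h library, and the log2 change was -0.82 ± 0.095 (SE, edgeR adjusted p = 0.00249), called in all 10 fits that left out a library. It also fell at 30 µM, from 12.2 ± 1.25 to 8.10 ± 1.04 CPM (SD, n = 5, edgeR adjusted p = 0.00659), and at 40 µM, from 10.8 ± 0.596 to 7.72 ± 1.04 CPM (SD, n = 5, edgeR adjusted p = 0.00312). Its log2 change was 0.33 less negative at 40 µM than in vehicle. As the transcript was chosen for its vehicle change, that difference is given without a test.

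ENSCPOT00000003858.3, of 744 bases and with fractional estimates, stood at 3.23, 2.56, 3.76, 3.10 and 4.92 CPM in the 12 h libraries, against 2.00, 2.05, 1.88, 1.36 and 1.37 CPM in those of 24 h. The highest 24 h library was below the lowest 12 h library, and the log2 change was -1.02 ± 0.211 (SE, edgeR adjusted p = 0.0471). In 4 of the 10 fits that left out a library the call was lost. At 30 µM the log2 change was -0.12 (edgeR adjusted p = 0.963), with levels from 0 to 3.06 CPM at 24 h, and at 40 µM it fell, by 0.52 on the log2 scale (edgeR adjusted p = 0.0523).

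ENSCPOT00000047683.1, of 3675 bases and with fractional estimates, rose from 2.52, 2.30, 1.81, 1.41 and 1.70 CPM at 12 h to 2.96, 4.95, 4.05, 4.15 and 3.23 CPM at 24 h. The log2 change was 0.98 ± 0.201 (SE, edgeR adjusted p = 0.0446), and 4 of the 10 fits that left out a library lost the call. With mercuric chloride it was already higher at 12 h, at 5.70 ± 1.56 CPM at 30 µM and 6.57 ± 2.02 CPM at 40 µM (SD, n = 5). It stood at 6.40 ± 1.14 and 6.16 ± 1.63 CPM at 24 h. The time change at 40 µM minus that in vehicle was -1.08 on the log2 scale, given without a test because the vehicle change had chosen the transcript.

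ENSCPOT00000036571.1, of 2797 bases and with fractional estimates, was at 2.17, 3.15, 2.17, 1.17 and 2.79 CPM in the 12 h libraries, against 4.34, 4.58, 3.26, 4.89 and 5.05 CPM in those of 24 h. The lowest 24 h value was only just above the highest 12 h value. The log2 change was 0.95 ± 0.238 (SE, edgeR adjusted p = 0.09998), at the threshold, and 9 of the 10 fits that left out a library lost the call.

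Most transcripts called in vehicle had estimates of the same sign in the mercuric chloride libraries. As in vehicle, title order follows time there, so an effect of order cannot be told apart from time. At 30 µM, 274 of 358 tested (76.5%) had an estimate in the direction of the vehicle change, against 58.6% of all transcripts tested in both. Their median change in that direction was 0.11 on the log2 scale, against 0.24 in vehicle, where the calls had been chosen for their change. Called in the same direction were 108 (30.2%) and in the opposite one 27 (7.54%), where 9.03% of all transcripts were called in either direction. Of the vehicle rises, 165 of 228 (72.4%) were above 0 and 64 (28.1%) were called higher, where 4.31% of all transcripts were. Of the vehicle falls, 109 of 130 (83.8%) were below 0 and 44 (33.8%) were called lower, where 4.71% of all were. The most abundant level bin held 58.1% of vehicle rises and 30.0% of vehicle falls. In it, 258 of 3323 transcripts were called higher at 30 µM and 318 lower. The shares over all transcripts are therefore not matched for level.

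At 40 µM, 249 of 357 (69.7%) kept the vehicle direction, against 55.9% of all transcripts, with a median of 0.18 in that direction. Over the 172 calls of the most abundant bin the median was 0.21 at 40 µM and 0.10 at 30 µM, against 0.18 in vehicle. Called in the same direction were 191 (53.5%) and in the opposite one 51 (14.3%), where 42.9% of all transcripts were called in either direction. In the most abundant bin 62.1% of transcripts were called in either direction. Of the vehicle rises, 169 of 227 (74.4%) were above 0 and 136 (59.9%) were called higher, where 22.1% of all transcripts were. Of the vehicle falls, 80 of 130 (61.5%) were below 0 and 55 (42.3%) were called lower, where 20.8% of all were. Whether rises and falls differed in this was not tested. In the most abundant level bin, 1261 of 3323 transcripts were called higher at 40 µM and 801 lower. Here too the shares over all transcripts are not matched for level. The change between times differed from that in vehicle for 83 of the 359 at 30 µM (23.1%, against 3.74% of all transcripts) and for 191 at 40 µM (53.2%, against 30.0%). Both interactions used the vehicle libraries that made the calls, so these shares are a description.

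**Figure D5:**
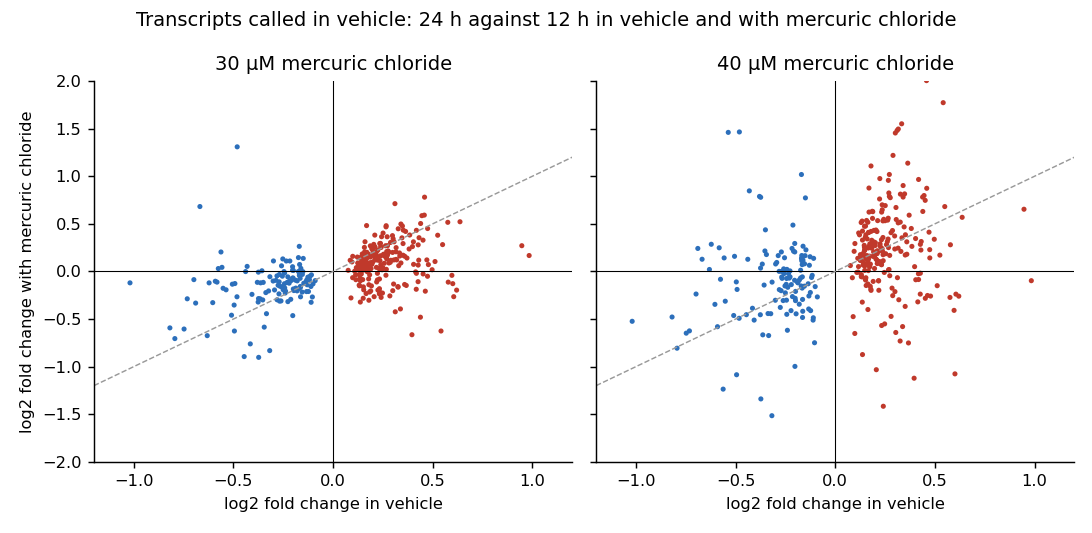
Each point is a transcript called in vehicle, with its log2 fold change at 24 h relative to 12 h in vehicle (horizontal) and at 30 or 40 µM mercuric chloride (vertical), where the dashed line marks equal change. Rises in vehicle are red and falls blue, 274 of 358 points lie on the vehicle side of 0 at 30 µM and 249 of 357 at 40 µM, and 4 points per panel lie outside the axes.

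The split by level and length with mercuric chloride was as follows. In the most abundant level bin, 133 transcripts rose and 39 fell in vehicle, 258 rose and 318 fell at 30 µM, and 1261 rose and 801 fell at 40 µM. The share called in that bin was 5.18%, 17.3% and 62.1% in the same order, against 2.16%, 9.03% and 42.9% of all transcripts. Over all transcripts 718 rose and 785 fell at 30 µM, and 3714 rose and 3485 fell at 40 µM. Over the transcripts of that bin tested in all 3 comparisons the median change was 0.01 on the log2 scale in vehicle, -0.005 at 30 µM and 0.05 at 40 µM. In the shortest length bin the medians were 0.02, 0.006 and 0.04. Whether these differ from 0 was not tested, and the length slope over the vehicle libraries had an exact permutation p = 0.405. Differences between these medians were not tested.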

How the data were processed

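RNA was poly-A-enriched and made into stranded, paired-end libraries (Illumina NovaSeq6000). The authors quantified each library against the Ensembl guinea pig transcriptome with Kallisto, version 0.42.4 per the submitters' processing notes, which shares reads between similar transcripts. They deposited, for each of 25824 transcripts, an estimated count (not normalised) and TPM (scaled by effective length to a fixed total). The Ensembl release is not given in the sources used here. Deposited estimated counts were rounded and tested with edgeR 4.0.16 (quasi-likelihood F-test, TMM, filterByExpr, R 4.3.3) on the 10 vehicle libraries, and p-values were Benjamini-Hochberg adjusted. The threshold of 0.1 is that of the study. CPM are counts scaled to a common total with TMM factors, with a prior count of 2 on the log2 scale. TPM were tested with limma 3.58.1 after adding 1 or 0.1. Libraries in each group were numbered 1 to 5 in sample order, which pairs nothing. The filter left 9210 transcripts untested.

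Transcripts given by identifier were the 2 largest rises and 2 largest falls among called transcripts with a mean of at least 50 counts and groups that did not overlap. The comparison, the members and the lists were chosen with earlier results of these data known. Of the 25824 identifiers, 0 matched the gene table (assembly mCavPor4.1), so the planned gene lists and cell type markers were not run and no sequences are printed. Alternatives were RLE factors, DESeq2 1.42.0, no filter, a threshold of 0.05, one fit of all 30 libraries, TPM scales, a block on title position, removal of length or level trends, whole estimates only and leaving out libraries. Chosen after seeing the data were fragment length as a covariate, leaving out 12 h library 5 and 24 h library 2 together, library totals alone, and median-centred or rescaled TPM. The scripts were tested on simulated data. Depth ranged from 21651452 to 34237468 estimated counts, and intervals cover counting error only, since reads are not independent molecules.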

Additional observations from a re-analysis of the deposited data

Results flagged for a closer look

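Of 32 sets of 5 libraries examined, 4 held a value far from the other 4, where chance flags about 1 in 20 sets, or 1.6 of 32. All 4 were at 24 h. Library 2 gave 3 of them. Its 1000 most abundant transcripts held 59.03% of counts (the next library had 58.56%). In it 548 transcripts held 50% of the counts (565 in the next library), and its mean fragment length was 175.7 bases (207 in the next). Library 3 gave the other one, a slope of log2 CPM deviation on mean log2 CPM of -0.0098, where the next library had 0.0040.

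The change between 24 h and 12 h differed from that in vehicle for 650 transcripts at 30 µM and for 5261 at 40 µM (edgeR interaction, adjusted p under 0.1). Among the transcripts given by identifier, the change at 40 µM minus that in vehicle was -1.08 on the log2 scale for ENSCPOT00000047683.1 and 0.33 for ENSCPOT00000033641.1. Both had been chosen for their change in the same vehicle libraries, so both differences are a description.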

How the results depend on the processing

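The vehicle calls (359, of which 229 rises, 130 falls and 6 of at least 2-fold) became 783 (455 rises, 328 falls) with DESeq2, 193 (140 and 53, with 3 of at least 2-fold) at an adjusted p under 0.05, 1090 (150 and 940) on log2(TPM + 1), 1083 (145 and 938, with 19 of at least 2-fold) on log2(TPM + 0.1), 607 (145 and 462) on TPM rescaled over transcripts of at least 300 bases, and 835 (485 and 350) without 12 h library 5 and 24 h library 2. Falls numbered 86 with no filter, 279 with library totals alone and 81 on median-centred TPM. Changes of at least 2-fold numbered 2 with all 30 libraries in one fit, 3 with whole estimates only, 10 with fragment length as a covariate and 3 on median-centred TPM. Leaving out each library in turn gave 175 to 546 calls, 122 to 318 rises, 48 to 228 falls and 3 to 10 of at least 2-fold. The replicate block on title position called 0 transcripts (0 rises, 0 falls, 0 of at least 2-fold) with edgeR on 3 residual degrees of freedom, where 1442 had an unadjusted p under 0.05. Libraries with the same position did not deviate together (r from -0.030 to 0.039), and the labels state no pairing.

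The difference in transcripts with at least 1 count (24 h minus 12 h, 45.8) was -31.6 at a limit of 10 counts and ran from -27.1 to 134.8 when each library was left out. On the same terms the difference for the 10 most abundant transcripts ran from -0.284 to 0.190 percentage points, for fractional estimates from -0.0411 to 0.142, for fragment length from -1.44 to 8.60 bases, for the 100 most abundant from 0.206 to 0.637, for the transcripts holding 50% of counts from -26.4 to -15.9, for transcripts under 1000 bases from 0.147 to 0.320, for those over 4000 bases from -0.962 to -0.322, for the length slope from -0.059 to -0.011 and for the level slope from 0.0030 to 0.0082. The length slope turned to 0.0093 without the 2 libraries named above, and the level slope was 0.0084 at 5 CPM or more (exact permutation p = 0.0318), 0.00082 with no filter and 0.0018 on log2(TPM + 1). With 10 bins in place of 5, 7.52% of the most abundant and 0.120% of the rarest bin were called, and 0.482% of the rarest of 5 bins by TPM. The 4 transcripts given by identifier kept their direction throughout, and apart from leaving out single libraries their calls held in 51 comparisons and were lost in 10, of which 6 were those of ENSCPOT00000036571.1. The sign shares at 30 and 40 µM and both interaction counts stayed within 1.5 times. The causes of these shifts were not tested. The rarest of the 5 level bins averaged 35.6 counts per library with a median standard error of 0.326, so small changes were not detectable there.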

Other observations

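On the TPM scale, where short transcripts weigh more than in counts, the 100 most abundant transcripts of a library held 39.0 to 40.0% of the total at 12 h and 40.8 to 41.2% at 24 h, and the 10 most abundant 15.1 to 16.1% and 16.4 to 17.2%. Neither pair of ranges overlapped. These shares were computed after the data were seen and were not tested.

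In all, 3.07% of the TPM total moved to transcripts that gained. The largest gain, 0.757% of the total, was that of 1 transcript of 93 bases, whose effective length was 11.4 to 12.6 bases. It held 2.99 to 3.26% of TPM at 12 h and 3.29 to 4.33% at 24 h, but only 0.0215 to 0.0258% and 0.0244 to 0.0333% of counts, which overlapped. Its log2 change in counts was 0.38 ± 0.077 (SE, edgeR adjusted p = 0.0408). The 13 transcripts at the head of the tables gained 0.761% of TPM between them.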
